A study of Mus musculus with 11 samples.

Results

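Heme is made from glycine and succinyl-CoA by a chain of enzymes that starts and ends in the mitochondrion, and it is opened to biliverdin, carbon monoxide and iron by the heme oxygenases. The 9 genes described here are Alas1, Alad, Uros, Urod, Cpox, Ppox and Fech, which encode 7 of the synthesis enzymes, and Hmox1 and Hmox2, which encode the 2 heme oxygenases. They were chosen by name from the 24411 genes of a count table of mouse testis RNA, and all 9 passed the filter on low counts in each comparison. The iron regulatory proteins Irp1 (gene Aco1) and Irp2 (gene Ireb2) bind iron-responsive elements, short hairpins in the mRNAs of iron genes, when iron is scarce. A hairpin in the leader of an mRNA blocks its translation when bound, and hairpins behind the coding part protect the transferrin receptor mRNA from decay. Germ cells and the steroid-making Leydig cells of the testis use heme in cytochromes and in cytochrome P450 enzymes. The samples therefore allow the question of whether the mRNAs of heme synthesis and breakdown differ in testes that lack either regulator.

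The table held 4 WT samples labelled C57Bl/6J, 4 Irp1-/- samples and 3 Irp2-/- samples, all from untreated mice 20 weeks old. Irp1-/- is a global knockout carrying the allele Aco1tm1Roua, and Irp2-/- is a global knockout of Ireb2 whose source is not given in the sources used here. RNA came from the whole decapsulated testis with all of its cell types and was enriched for polyadenylated mRNA. A lower level in such bulk RNA cannot tell fewer cells of a type from less RNA per cell. The replicates are separate samples by their labels, so a p-value sets the difference between genotypes against the spread between these samples. A letter in the column names, whose meaning is not stated, is R in Irp1-/- replicate 6 and L in the remaining 10 samples.

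Levels are given as CPM, that is, reads of a gene per 1000000 reads counted in the sample. The total was between 15902473 and 22451417 counts per sample. All 8 elongating spermatid markers were high, with Prm2 the highest, and their summed level was between 20325 and 25235 CPM in every sample. Of 10 erythroid markers, Hbb-bs was at 0 in every sample, and 5 to 6 had a genotype mean under 1 CPM. Globin genes have near-identical copies, so their counts are uncertain. The targeted gene Ireb2 was between 61.3 and 64.4 CPM in Irp2-/- testes and between 132 and 142 CPM in WT testes, so that its level went with the label (log2 fold change -1.16 in edgeR). Aco1 ranged from 7.98 to 9.19 CPM in Irp1-/- testes and from 9.59 to 12.9 CPM in WT testes. It fell by 0.45 on the log2 scale (standard error 0.098, adjusted p = 0.0158, edgeR). Part of the Aco1 transcript was thus still counted, and its adjusted p lay between 0.0520 and 0.0750 when WT replicate 2, 3 or 4 or Irp1-/- replicate 6 was left out (edgeR).

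One of the 9 genes rose in Irp1-/- testes. Alad, which encodes the enzyme that joins pairs of aminolevulinic acid molecules into porphobilinogen, was higher in all 4 Irp1-/- samples than in any WT or Irp2-/- sample. The 6 other synthesis genes and both heme oxygenase genes were not called in any of the 3 comparisons. In the comparison of Irp1-/- with WT, 1 of 9 members had an adjusted p under 0.05 in edgeR, beside 1.02% of the 16002 genes tested, and for 1 of 9 the samples of the groups did not overlap, beside 6.18%. In the comparison of Irp2-/- with WT, 0 of 9 members were called, beside 1.21% of 16154 genes, and 0 of 9 had an unadjusted p under 0.05 in edgeR, beside 9.42% of all genes tested. The groups overlapped for all 9, whereas they did not for 9.76% of the genes tested. DESeq2 also called 0 of 9 there. Between Irp1-/- and Irp2-/- testes, 1 of 9 members was called, again Alad, beside 4.69% of 16281 genes, and 1 of 9 had an unadjusted p under 0.05, beside 16.3%. These comparisons share samples, the WT samples in the case of both knockouts, so the values of each are given side by side.

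Alad lies on chromosome 4, on the chromosome of Aco1. In mm10 it spans chr4:62505984-62520063 on the minus strand, 22.3 Mb from Aco1 at chr4:40143265-40199009. Hdhd3, a gene for a haloacid dehalogenase-like protein, lies next to it at chr4:62499054-62502200 on the same strand. Their promoters are shown because these neighbours were the pair that rose together in Irp1-/- testes, as described further on. Each runs from 250 bases before to 50 bases after a gene start of RefSeq on GRCm38.p6, 5′ to 3′ along the gene's strand, with E-boxes (CACGTG) and GC boxes (GGGCGG on either strand) in capitals. RefSeq has a second start for Alad, whose promoter overlaps the printed window.
Alad, chr4:62519860-62520159, minus strand: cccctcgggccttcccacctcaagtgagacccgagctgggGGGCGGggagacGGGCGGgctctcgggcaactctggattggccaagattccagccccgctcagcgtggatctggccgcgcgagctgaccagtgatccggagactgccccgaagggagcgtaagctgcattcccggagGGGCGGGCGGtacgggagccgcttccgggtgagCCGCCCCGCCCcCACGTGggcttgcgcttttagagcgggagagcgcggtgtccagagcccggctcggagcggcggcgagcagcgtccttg
Hdhd3, chr4:62502151-62502450, minus strand: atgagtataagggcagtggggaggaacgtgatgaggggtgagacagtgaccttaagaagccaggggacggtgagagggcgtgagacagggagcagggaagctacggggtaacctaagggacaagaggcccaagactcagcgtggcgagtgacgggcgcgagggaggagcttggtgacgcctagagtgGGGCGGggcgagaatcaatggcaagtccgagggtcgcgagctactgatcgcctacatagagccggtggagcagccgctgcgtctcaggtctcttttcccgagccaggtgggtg
The printed Alad window held 1 E-box and 6 GC boxes, some of which overlap each other, and the Hdhd3 window held 0 and 1. The window of the second Alad start held 1 E-box and 2 GC boxes. Among 32851 mouse promoter windows of this length, 7.15% held the E-box and 35.7% held a GC box. Of the 9 members, 7 had a promoter in the table. The E-box was in a window of 3 of these (Alad, Uros and Urod), and a GC box was in a window of 6. A member counted if any of its windows matched, and some members have more than 1. These counts of genes are therefore not on the scale of the shares of windows. The antioxidant response element core TGACNNNGC, found in 12.4% of all windows, was in 0 of the 7. The nuclear respiratory factor 1 site was in 0.971% of all windows and, among the members, in those of Alas1. The GATA site AGATAA was in 11.2% of all windows and in that of Cpox. ATTGG, the CCAAT box read on the other strand, was in 37.4% of all windows and in those of Alad, Urod and Ppox. All motifs were searched on both strands.

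The synthesis gene with a known iron-responsive element is Alas2, the erythroid form of the enzyme of the rate-limiting step, whose mRNA carries the hairpin in its leader. That element is shown because it is what the absent proteins bind, with the 6-base loop in capitals.
Alas2 iron-responsive element, bases 85 to 111 of a 2037-base transcript, chromosome X: tggttcgtcctCAGTGCagggcaacag
A search for a hairpin of this form (a bulged C, a stem of 5 pairs, the loop CAGTGN with any last base but G, and at least 4 of 5 pairs in the lower stem) found it in 23 of 21875 protein-coding genes, or 0.105%. It was in 0 of the 9 members, over their 21 annotated transcripts.

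Per length of transcript, the members spanned a range of more than 2 orders of magnitude. Hmox2, the constitutive heme oxygenase, stood far above the rest with 449 CPM per kilobase in WT testes. Alas1, the housekeeping form of the rate-limiting enzyme, followed with 32.3 CPM per kilobase. Alad had 17.9 and Fech 12.4 CPM per kilobase. Neighbours among these 4 did not overlap in any genotype. Uros with 5.35, Hmox1 with 5.31 and Urod with 5.06 CPM per kilobase came next and overlapped each other, so that their order in WT is not resolved. Cpox with 1.45 and Ppox with 1.02 CPM per kilobase were the lowest and also overlapped. The same 4 genes led in this order in the Irp1-/- and Irp2-/- testes, and Cpox and Ppox were again the lowest. On the scale of plain CPM, the 9 genes together took between 767 and 862 CPM, of which Hmox2 alone made up 74.2% to 78.1%.

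**Figure D1:**
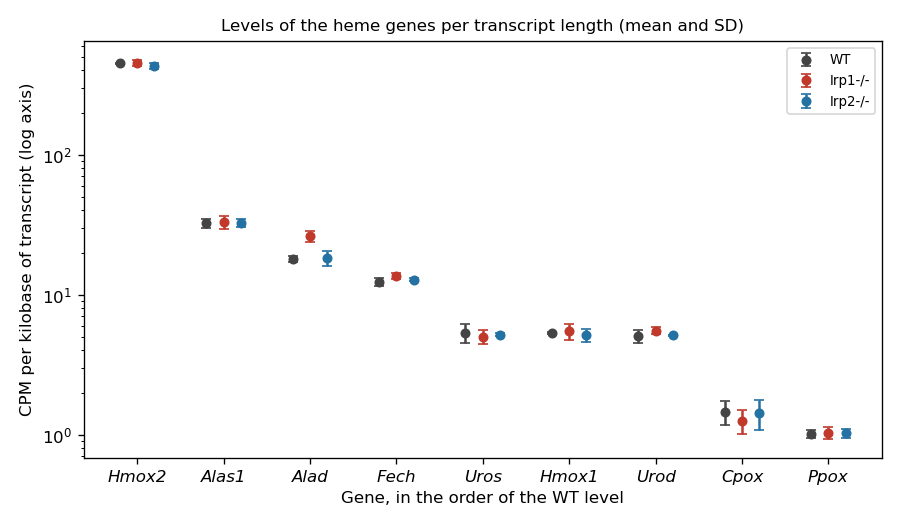
Mean level of each of the 9 heme genes in CPM per kilobase of transcript (vertical log axis), by genotype and in the order of the WT level; points are means and bars are SD over 4 WT, 4 Irp1-/- and 3 Irp2-/- samples. Hmox2 stands at 449 CPM per kilobase in WT testes and Ppox at 1.02, and Alad is the gene whose Irp1-/- point lies clearly above the other genotypes.

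Synthesis begins with the condensation of glycine and succinyl-CoA by the ALAS enzymes. Alas1 (chr9:106233455-106247954) had 99.2, 91.7, 110 and 98.2 CPM in WT replicates 1 to 4. It had 112, 112, 92.7 and 92.7 CPM in Irp1-/- replicates 1, 2, 6 and 7, and 96.3, 98.8 and 109 CPM in Irp2-/- replicates 1 to 3. The 3 genotypes overlapped, and the Irp1-/- samples fell into a higher and a lower pair on either side of the WT mean of 99.9 CPM. The log2 fold change against WT was 0.02 in Irp1-/- (95% interval -0.14 to 0.19) and -0.0017 in Irp2-/- (-0.12 to 0.11). In Irp1-/- testes the ends of the 95% interval were a rise of 13.9% and a fall of 9.11%. Alas2, not a member but the other gene of this step, was between 15.0 and 16.8 CPM in WT, 16.1 and 18.4 CPM in Irp1-/- and 15.9 and 17.9 CPM in Irp2-/- testes. Its log2 fold change against WT was 0.09 in Irp1-/- (adjusted p = 0.709, edgeR) and 0.08 in Irp2-/- (adjusted p = 0.887, edgeR).

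Alad encodes the enzyme of the next step, delta-aminolevulinic acid dehydratase, a cytosolic enzyme that needs zinc and is blocked by lead. In WT replicates 1 to 4 it had 20.5, 23.05, 21.8 and 22.5 CPM, from 374 to 405 reads. In Irp1-/- replicates 1, 2, 6 and 7 it had 35.3, 33.7, 28.3 and 30.9 CPM, from 491 to 756 reads. In Irp2-/- replicates 1 to 3 it had 23.9, 19.4 and 24.1 CPM. The lowest Irp1-/- sample, replicate 6, thus lay above the highest sample of both other genotypes, while Irp2-/- and WT overlapped. The WT mean was 21.9 ± 1.10 CPM (SD, n = 4). The Irp1-/- mean was 32.0 ± 3.07 CPM (SD, n = 4), and the Irp2-/- mean was 22.5 ± 2.69 CPM (SD, n = 3).

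Against WT, Alad rose by 0.53 on the log2 scale in Irp1-/- testes (standard error 0.067, 95% interval 0.40 to 0.67, adjusted p = 1.49e-05, edgeR), that is, by 44.9% (31.7% to 59.4%). It ranked 15 by p-value among the 16002 genes tested. In Irp2-/- testes the log2 fold change against WT was 0.02 (95% interval -0.14 to 0.18, adjusted p = 0.981, edgeR). The upper end of that interval was a rise of 13.1%. The difference between the knockouts was tested directly. Alad was higher in Irp1-/- than in Irp2-/- testes by 0.52 on the log2 scale (standard error 0.083, 95% interval 0.35 to 0.70, adjusted p = 0.000506, edgeR). Relative to Hmox2 on the scale per kilobase, Alad stood at 3.98% in WT, 5.80% in Irp1-/- and 4.27% in Irp2-/- testes.

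**Figure D2:**
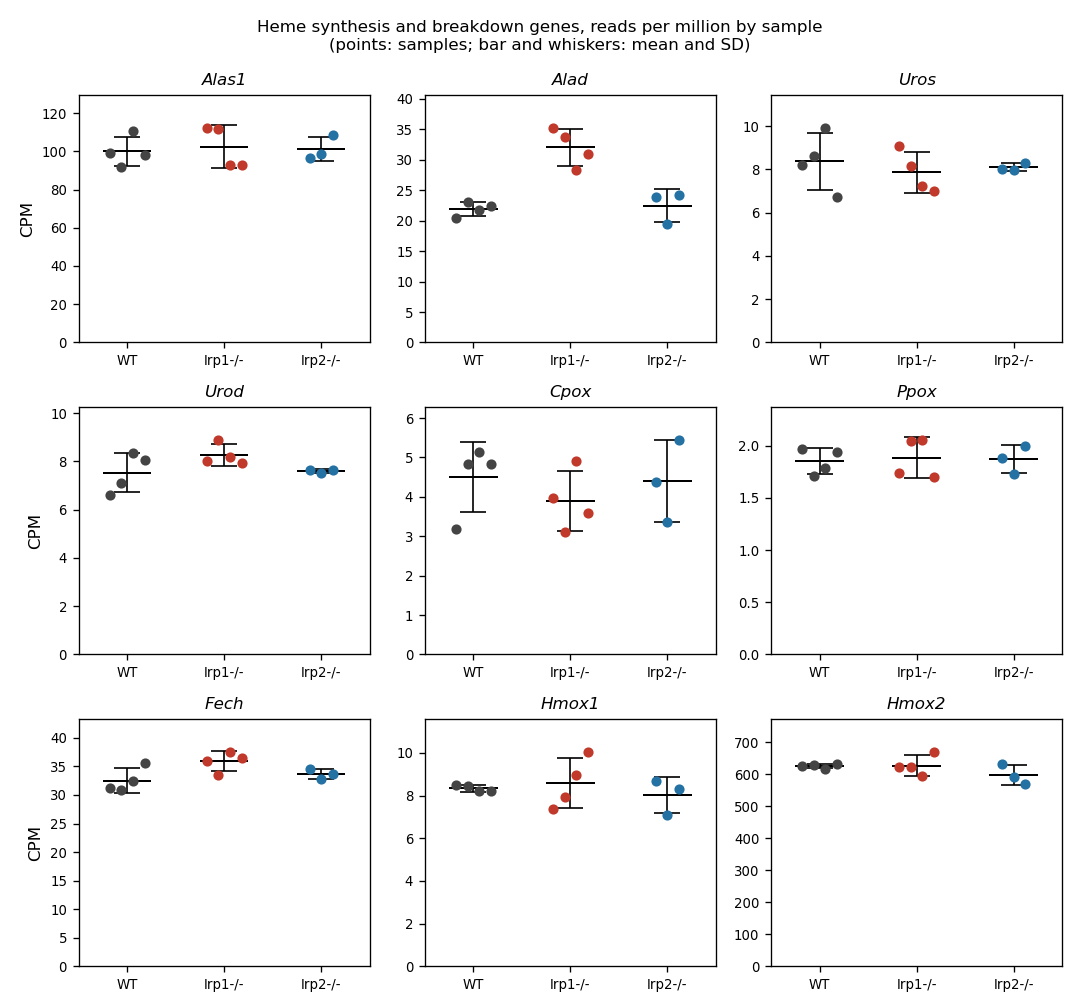
Level of each of the 9 heme genes in CPM (vertical axes starting at 0), 1 panel per gene, with each point a sample of WT (n = 4), Irp1-/- (n = 4) or Irp2-/- (n = 3) and the bar and whiskers the mean and SD. In the Alad panel the 4 Irp1-/- samples lie between 28.3 and 35.3 CPM, above all WT and Irp2-/- samples, and in the other panels the Irp1-/- and WT samples overlap.

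The middle of the pathway turns porphobilinogen into a ring and trims its side chains. Uros (chr7:133686142-133710467) encodes the synthase that closes and inverts the last ring to make uroporphyrinogen III. It had 8.22, 8.62, 9.93 and 6.72 CPM in WT, 9.08, 8.15, 7.23 and 6.98 CPM in Irp1-/-, and 8.01, 7.99 and 8.32 CPM in Irp2-/- testes. The WT samples, from 6.72 to 9.93 CPM, enclosed all samples of the other genotypes. The log2 fold change against WT was -0.10 in Irp1-/- (95% interval -0.33 to 0.14) and -0.07 in Irp2-/- (-0.31 to 0.18).

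Urod (chr4:116989965-116994436) encodes the decarboxylase of the next step and, like Alad, lies on chromosome 4, but 76.8 Mb from Aco1. It had 6.63, 7.09, 8.37 and 8.05 CPM in WT, 8.02, 8.91, 8.19 and 7.92 CPM in Irp1-/-, and 7.65, 7.53 and 7.67 CPM in Irp2-/- testes. All 4 Irp1-/- samples were above all 3 Irp2-/- samples, whereas WT overlapped both. The log2 fold change in Irp1-/- was 0.12 against WT (95% interval -0.08 to 0.33, adjusted p = 0.680, edgeR) and 0.13 against Irp2-/- (adjusted p = 0.596, edgeR). Groups that do not overlap were found for 15.1% of all genes in the latter comparison, and for 2 of the 9 members, Alad and Urod.

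The last steps return to the mitochondrion. Cpox (chr16:58670208-58680391), the oxidase that makes protoporphyrinogen IX from coproporphyrinogen III, had 3.18, 4.83, 5.14 and 4.83 CPM in WT and 3.96, 3.12, 4.92 and 3.58 CPM in Irp1-/- testes. It had 4.38, 3.36 and 5.45 CPM in Irp2-/- testes. Samples of a genotype spread widely, and the ranges overlapped. At -0.22 the log2 fold change of Irp1-/- against WT was the lowest of the 9 (95% interval -0.54 to 0.11, adjusted p = 0.629, edgeR), and in Irp2-/- it was -0.05 (-0.41 to 0.31).

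Ppox (chr1:171276991-171281193) encodes the oxidase that gives protoporphyrin IX and had the lowest level. It had 1.97, 1.71, 1.79 and 1.94 CPM in WT, 1.74, 2.05, 2.06 and 1.70 CPM in Irp1-/-, and 1.88, 1.73 and 1.998 CPM in Irp2-/- testes. These values came from 27 to 46 reads each and overlapped. The intervals of the log2 fold change against WT were correspondingly wide, from -0.36 to 0.40 in Irp1-/- and from -0.43 to 0.41 in Irp2-/-. Changes in Irp1-/- testes between -22.3% and 32.0% were therefore not resolved at this depth.

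Fech, ferrochelatase, puts ferrous iron into protoporphyrin IX, and it carries an iron-sulfur cluster in mammals. It had 31.2, 30.9, 32.4 and 35.6 CPM in WT, 35.9, 33.5, 37.6 and 36.5 CPM in Irp1-/-, and 34.6, 32.8 and 33.6 CPM in Irp2-/- testes. WT replicate 4 lay within the Irp1-/- range, and the other 3 WT samples lay below it. The log2 fold change of Irp1-/- against WT was 0.13 (95% interval 0.01 to 0.24). Its unadjusted p of 0.0292 became an adjusted p of 0.335 in edgeR, so that Fech was not called. An unadjusted p under 0.05 was found for 12.1% of all genes and for 2 of the 9 members, Alad and Fech. In Irp2-/- testes the log2 fold change of Fech against WT was 0.03 (95% interval -0.10 to 0.16).

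Heme breakdown runs through the inducible Hmox1 and the constitutive Hmox2. Hmox1 (chr8:75093618-75100593), which is induced by heme and by oxidative stress, had 8.49, 8.44, 8.20 and 8.21 CPM in WT testes. It had 7.39, 7.93, 8.94 and 10.1 CPM in Irp1-/- and 8.68, 7.07 and 8.32 CPM in Irp2-/- testes. The WT samples lay closest together, with an SD of 0.150 CPM against 1.18 CPM in Irp1-/- testes, and the Irp1-/- samples lay on both sides of them. The WT values came from 138 to 155 reads each, and a difference in spread between genotypes was not tested. The log2 fold change against WT was 0.02 in Irp1-/- (95% interval -0.19 to 0.23) and -0.07 in Irp2-/- (-0.30 to 0.15).

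Hmox2 (chr16:4726361-4766742) had 625, 630, 617 and 631 CPM in WT, 622, 622, 594 and 671 CPM in Irp1-/-, and 631, 592 and 569 CPM in Irp2-/- testes. The genotypes overlapped, and 2 of the 3 Irp2-/- samples were below every WT sample. As the most deeply counted member, Hmox2 also had the narrowest intervals. The log2 fold change against WT was -0.01 in Irp1-/- (95% interval -0.09 to 0.07), that is, between -6.07% and 4.98%. In Irp2-/- testes it was -0.09 (95% interval -0.18 to 0.0099, adjusted p = 0.618, edgeR), the lowest of the 9 genes in that comparison.

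**Figure D3:**
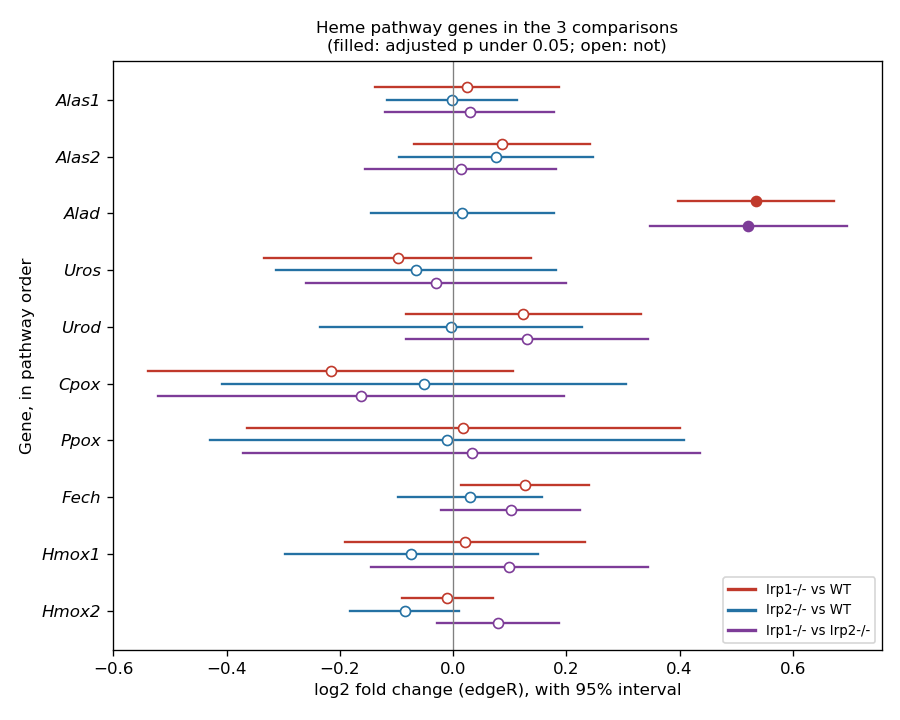
Log2 fold change from edgeR (horizontal axis) with its 95% interval for the 9 heme genes and Alas2, in pathway order, for Irp1-/- against WT, Irp2-/- against WT and Irp1-/- against Irp2-/-; filled points have an adjusted p under 0.05. The filled points are those of Alad in both comparisons with Irp1-/-, at 0.53 and 0.52, while Alad in Irp2-/- against WT sits at 0.02.

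Over the 9 genes the median log2 fold change was 0.02 in Irp1-/- against WT, with values from -0.22 to 0.53, 6 of them positive and 3 negative. In Irp2-/- against WT it was -0.01, with values from -0.09 to 0.03, 2 positive and 7 negative. Over all genes tested these medians were -0.00079 and 0.0033. The summed level of the 7 synthesis genes was between 168 and 190 CPM in WT, 180 and 206 CPM in Irp1-/-, and 172 and 190 CPM in Irp2-/- testes.

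The genes around Alad were read next, because Alad shares its chromosome with the targeted gene. Of the 5 tested genes on each side of it, 1 of 10 was called in Irp1-/- against WT, and this was Hdhd3, the neighbour on the side of the 3′ end of Alad. Hdhd3 had 1.42, 1.34, 1.56 and 1.33 CPM in WT, 2.64, 2.36, 2.76 and 3.08 CPM in Irp1-/-, and 2.01, 1.37 and 1.73 CPM in Irp2-/- testes. These levels came from 22 to 55 reads, and the Irp1-/- samples lay above all others. Hdhd3 rose by 0.91 on the log2 scale in Irp1-/- against WT (standard error 0.184, 95% interval 0.54 to 1.29, adjusted p = 0.00972, edgeR). In Irp2-/- testes its log2 fold change was 0.25 (adjusted p = 0.840, edgeR), and the difference between the knockouts of 0.66 missed the threshold (adjusted p = 0.0534, edgeR) but passed it in 4 of 13 alternatives, among them without Irp2-/- replicate 1 (adjusted p = 0.0378, edgeR).

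The tested genes directly next to this pair were close to their WT means. Pole3, a subunit gene of DNA polymerase epsilon on the other side of Alad, had a mean of 57.5 CPM in Irp1-/- and 57.3 CPM in WT testes, and Bspry, beyond Hdhd3, had 363.3 and 363.1 CPM. Pole3 had a log2 fold change of -0.0097 (95% interval -0.11 to 0.09) and Bspry of -0.013 (-0.09 to 0.07). Of the 10 neighbours, Rgs3 was called between the knockouts, being higher in Irp1-/- than in Irp2-/- testes by 0.29 on the log2 scale (adjusted p = 0.0283, edgeR), in 8 of 13 alternatives as well.

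**Figure D4:**
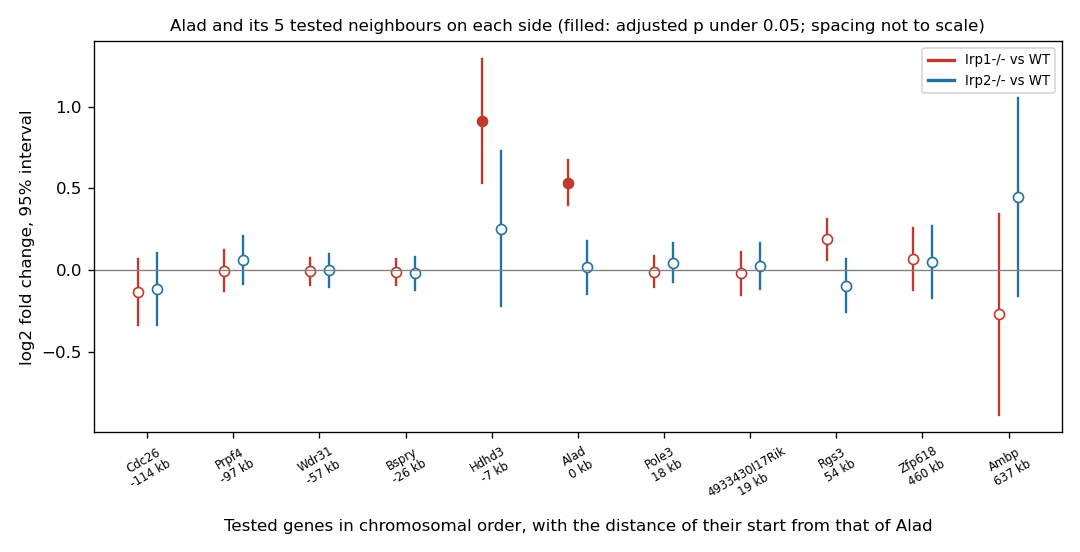
Log2 fold change from edgeR with its 95% interval (vertical axis) for Alad and the 5 tested genes on each side of it, in chromosomal order (horizontal axis, spacing not to scale, distance of each gene's lowest coordinate from that of Alad in kb), in Irp1-/- and Irp2-/- against WT; filled points have an adjusted p under 0.05. Hdhd3 at 0.91 and Alad at 0.53 are the filled points, both in Irp1-/-, and the other 9 genes lie between -0.27 and 0.19 in that comparison.

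A wider stretch of chromosome 4, chosen after these values were seen, ran from the start of Aco1 to the start of Alad. In Irp1-/- against WT, 14 of its 172 tested genes were called (8.14%), 7 higher and 7 lower, and these counts include Aco1, Hdhd3 and Alad. On all of chromosome 4, 25 of 956 tested genes were called (2.62%), and on the other chromosomes 130 of 14237 (0.913%). In Irp2-/- against WT, 0 of 175 genes of the stretch were called. All Irp1-/- samples carry the Aco1 allele together with the chromosome 4 sequence inherited beside it, so the loss of Irp1 and this linked sequence cannot be told apart for Alad in these data.

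The markers of testis cell types were read beside Alad. In Irp1-/- against WT, 10 of 10 Sertoli markers had positive values. An unadjusted p under 0.05 was found for 6 of them in edgeR, beside 12.1% of all genes tested. Of these Sertoli markers, 1 was called (Clu, 0.16 on the log2 scale, adjusted p = 0.0473, edgeR). Their summed level was 1547 to 1805 CPM in Irp1-/- testes against 1413 to 1541 CPM in WT testes, without overlap. Of 8 Leydig markers, 7 had positive values, 3 had an unadjusted p under 0.05 and 1 was called (Hsd17b3, 0.37, adjusted p = 0.0232, edgeR), with sums of 1020 to 1197 CPM in Irp1-/- testes against 739 to 1088 CPM in WT testes. Hsd3b1, another Leydig marker, had the larger value of 0.41 and did not overlap between the groups. It missed the threshold in edgeR (adjusted p = 0.0570) and passed it in 5 of 14 alternatives, DESeq2 among them (adjusted p = 0.000258). Clu was called in 8 and Hsd17b3 in 9 of 14 alternatives, and neither was without WT replicate 1 or 2 or Irp1-/- replicate 1 (adjusted p = 0.0853 to 0.307, edgeR). Positive values were also read for 2 of 7 tested spermatogonia markers and 1 of 8 spermatocyte markers. Of 8 round and 8 elongating spermatid markers, 7 and 3 had positive values. In edgeR 0 of these germ cell markers were called in Irp1-/- against WT.

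Some Sertoli and Leydig markers were also higher in Irp1-/- than in Irp2-/- testes, the other comparison in which Alad was called. Of the 10 Sertoli markers, 9 had positive values, and 7 had an unadjusted p under 0.05 in edgeR, beside 16.3% of all genes tested. In edgeR 3 were called, namely Amh (0.86), Fshr (0.83) and Rhox5 (0.36, adjusted p of 0.0365 to 0.0394, edgeR), and DESeq2 called 0. Of the 8 Leydig markers, 8 had positive values and 2 were called by both edgeR and DESeq2, namely Hsd3b1 (0.68, adjusted p = 0.0170, edgeR) and Insl3 (0.27, adjusted p = 0.0425, edgeR). In Irp2-/- testes the sums were 1382 to 1615 CPM for Sertoli and 774 to 1055 CPM for Leydig markers, and both ranges overlapped those of Irp1-/- testes. All 5 calls were lost without Irp2-/- replicate 2 (adjusted p = 0.112 to 0.227, edgeR), and those other than Hsd3b1 also without Irp1-/- replicate 1 (adjusted p = 0.117 to 0.166, edgeR). Alad remained called without either of these samples. The part of these cell types in the higher Alad level was not tested.

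The other genes of heme handling were taken from lists. One list held 21 genes that serve the mitochondrial part of synthesis, such as the glycine carrier Slc25a38 and the transporter Abcb6. Of these, 0 were called in any comparison in edgeR. An unadjusted p under 0.05 was found for 2 of 21 in Irp1-/- against WT, beside 12.1% of all genes tested. It was found for 1 in Irp2-/- against WT, beside 9.42%, and for 1 in Irp1-/- against Irp2-/-, beside 16.3%. Slc25a38 had 13.1 ± 0.976 CPM (SD, n = 4) in WT and 12.7 ± 1.27 CPM (SD, n = 4) in Irp1-/- testes. The partners of the heme oxygenases in breakdown were the cytochrome P450 reductase Por and the biliverdin reductases Blvra and Blvrb. In edgeR 0 of these 3 were called in any comparison, and 0 had an unadjusted p under 0.05. Blvrb had the highest value, 0.32 in Irp1-/- against WT (95% interval -0.0037 to 0.64, adjusted p = 0.417, edgeR).

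Of 8 tested genes of heme transport and scavenging, 1 rose in Irp2-/- against WT and 0 in Irp1-/- against WT. This was Lrp1, the receptor for heme bound to hemopexin, at 55.6 to 57.4 CPM in Irp2-/- and 41.9 to 51.0 CPM in WT testes. It rose by 0.27 on the log2 scale (standard error 0.060, adjusted p = 0.0184, edgeR), and was not called without WT replicate 1 or 2 or without Irp2-/- replicate 2 (adjusted p = 0.0610, 0.102 and 0.101, edgeR). Of 14 regulators of heme genes, 0 were called against WT in either knockout in edgeR. An unadjusted p under 0.05 was found for 1 in Irp1-/- and 2 in Irp2-/-, beside 12.1% and 9.42% of all genes tested. Ppargc1a, a coactivator that raises Alas1 transcription in liver, was higher in Irp1-/- than in Irp2-/- testes by 0.61 on the log2 scale (adjusted p = 0.0426, edgeR), a call made in 5 of 13 alternatives and not by DESeq2 (adjusted p = 0.109). Its level was 3.85 ± 0.542 CPM (SD, n = 4) in Irp1-/- testes, 3.62 ± 0.402 CPM (SD, n = 4) in WT testes and 2.51 ± 0.464 CPM (SD, n = 3) in Irp2-/- testes.

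Among 10 targets of Nrf2, the oxidative stress factor that also acts on Hmox1, 0 were called against WT in either knockout in edgeR. An unadjusted p under 0.05 was found for 2 in Irp1-/- and 1 in Irp2-/-, beside 12.1% and 9.42% of all genes tested. Fth1, the ferritin heavy chain gene, was higher in Irp1-/- than in Irp2-/- testes by 0.26 on the log2 scale (adjusted p = 0.00499, edgeR), with 152 to 166 CPM against 123 to 143 CPM. Without Irp2-/- replicate 2 it was not called (adjusted p = 0.0676, edgeR). Of 15 tested genes of heme-using enzymes and of 5 genes of heme a and cytochrome c assembly, 0 were called in any comparison, and 0 had an unadjusted p under 0.05 in edgeR. The steroid-making P450 gene Cyp11a1 had 79.2 to 111 CPM in Irp1-/- testes against 28.5 to 84.7 CPM in WT testes, and its log2 fold change of 0.68 had an interval from -0.23 to 1.59. In the lists of this and the previous 2 paragraphs, DESeq2 called Lrp1 in Irp2-/- against WT and Fth1 between the knockouts, and no other gene.

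By the Pearson correlation of log2 CPM over the 11 samples, the genes most like Alad were Prr15 on chromosome 6 (r = 0.958), Gtpbp3 on chromosome 8 (r = 0.940) and Prdm11 on chromosome 2 (r = 0.927). These samples are 3 genotypes, and the likeness includes the step between them. Of these, Prr15 rose in Irp1-/- against WT (0.41 on the log2 scale, adjusted p = 0.0348, edgeR, called in 6 of 14 alternatives and not by DESeq2 with adjusted p = 0.0649), while Gtpbp3 at 0.37 (adjusted p = 0.211, edgeR) and Prdm11 at 0.52 (adjusted p = 0.246, edgeR) were not called.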

How the data were processed

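The deposited values are raw counts of reads on each gene. The authors demultiplexed with bcl2fastq (its version differs between the sources used here), ran nf-core RNA-seq v3.7 on mm10 and applied no scaling. The counting tool is not given in the sources used here, so the counts could be rounded estimates, and whether counting used the strand of the stranded kit is unknown. Members and gene lists were chosen with earlier results of these data known.

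Levels are counts divided by the sample total (CPM), and for levels per kilobase by the median length of a gene's GENCODE M21 protein-coding transcripts. In each comparison the samples of its 2 genotypes were fitted over all genes with edgeR 4.0.16 in R 4.3.3 (filterByExpr, TMM, robust quasi-likelihood test, Benjamini-Hochberg adjustment, called at an adjusted p under 0.05), after a test on simulated counts. Standard errors are the fold change over the root of F. For likeness, log2 CPM values were taken (prior count 2). Positions and promoters are from RefSeq GRCm38.p6. The alternatives were RLE normalization, no count filter or at least 10 counts in every sample, DESeq2 1.42.0, a fit of all 11 samples, a replicate block and leaving out each replicate. The genes named were the members, Aco1 and Ireb2, Alas2, called genes of the lists and of the 10 neighbours of Alad, and the 3 genes most like a called member. A few list genes that were not called are named as examples, and some genes covered by this rule are not reported here. All sample columns were used. Total counts lay between 15902473 and 22451417, and intervals cover the spread among these samples. In all 15 replicate pairs the counts differed beyond sampling noise.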

Additional observations from a re-analysis of the deposited data

Results flagged for a closer look

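Cpox in WT replicate 1 stood apart from the other WT samples, at 3.18 CPM against 4.83 to 5.14 CPM. Its gap to the nearest sample was 0.842 of the group's range, above the 95% critical value of Dixon's test. This was 1 flag in 18 groups of 4, and chance gives about 1 in 20.

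The change of Alad from WT differed between the knockouts. The test of Irp1-/- against Irp2-/- gave a difference of 0.52 on the log2 scale (adjusted p = 0.000506, edgeR), with all 4 Irp1-/- samples above all 3 Irp2-/- samples.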

How the results depend on the processing

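Alad kept its direction and its call in all 14 alternatives of Irp1-/- against WT, with log2 fold changes from 0.49 to 0.64 and adjusted p from 2.65e-11 to 0.000348, and in all 13 alternatives of Irp1-/- against Irp2-/-, from 0.43 to 0.68. Hdhd3 was called in 13 of 14 alternatives of Irp1-/- against WT, the exception being the replicate block (0.82, adjusted p = 0.134, edgeR), which also took the call from Aco1. Replicate numbers do not pair the samples, since same-numbered deviations correlated at -0.0100 to 0.0778. In Irp1-/- against WT, replicates 1 and 2 are the only numbers that both genotypes share. The block fit therefore draws its genotype effect from those samples and not from the others. With it, 2 members were called in place of 1 (Alad and Alas1, the latter at 0.20 with adjusted p = 0.0107, edgeR). In all, 439 genes were called in that comparison in place of 164. Leaving out 1 replicate gave 55 to 216 genes there, 118 to 223 in Irp2-/- against WT and 414 to 763 in Irp1-/- against Irp2-/-, and in the comparison of Irp1-/- with WT the counts were 55 without Irp1-/- replicate 1, 102 without replicate 6, 84 without WT replicate 2 and 106 without WT replicate 4. The 118 came without Irp2-/- replicate 2, and between the knockouts 471 came without Irp1-/- replicate 1 and 414 without Irp2-/- replicate 2. The count of members called was the same in every other alternative. DESeq2 gave an adjusted p for 8 of the 9 members in Irp1-/- against WT.

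Signs of uncalled values turned where the fit rested on fewer samples, and no further cause was tested. A block fit draws on the replicate numbers that both genotypes share, 1 to 3 in Irp2-/- against WT and 1 and 2 otherwise. The replicate block gave 0.0033 for Uros and -0.17 for Hmox1 in Irp1-/- against WT, 0.030 for Urod and 0.0072 for Ppox in Irp2-/- against WT, and 0.11 for Uros, -0.033 for Hmox1 and -0.039 for Alas2 between the knockouts. Leaving out 1 replicate gave, in Irp1-/- against WT, -0.026 to 0.072 for Alas1, -0.032 to 0.064 for Ppox, -0.053 to 0.088 for Hmox1 and -0.041 to 0.017 for Hmox2. In Irp2-/- against WT it gave -0.047 to 0.039 for Alas1, -0.035 to 0.10 for Alad, -0.16 to 0.016 for Uros, -0.057 to 0.040 for Urod, -0.22 to 0.099 for Cpox, -0.053 to 0.032 for Ppox and -0.14 to 0.0011 for Hmox1. Between the knockouts it gave -0.020 to 0.075 for Alas1, -0.10 to 0.017 for Uros, -0.31 to 0.0058 for Cpox, -0.016 to 0.075 for Ppox and -0.030 to 0.071 for Alas2. Lrp1, Ppargc1a and Fth1 were called in 10, 5 and 12 of 13 alternatives.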
